A study of Mus musculus with 20 samples.

Results

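RNA was sequenced from mouse embryos treated with P300 siRNA and collected at the late 2-cell stage or at the 4-cell stage, and the change between these stages is described here. The members were taken from the sample labels: 2 libraries of P300 siRNA embryos at each stage, which are 4 of the 20 libraries of the study. The question was how the transcriptome moved across this step when p300 was knocked down. The same step in control embryos, with 2 libraries at each stage, served as the background. Controls carry the genotype label WT and treated embryos the label P300 knockdown, and zygotes of both kinds were cultured in KSOM medium. The labels give no strain, sex, number of embryos per library, siRNA sequence or way of delivery, and do not say whether controls received an unrelated siRNA. They also do not say whether the 2 libraries of a group came from separate cultures, so the spread between them may be technical. The p values rest on the spread between replicates pooled over all 20 libraries, later stages included, and not on the compared libraries alone. No processing date or batch is given, so any batch that follows the stage cannot be told apart from the stage in the siRNA embryos alone. Such an effect cancels from the difference between the siRNA and control stage changes only if it acted alike on both.

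The step from the 2-cell to the 4-cell embryo follows the main wave of activation of the mouse embryonic genome. Over this time RNA stored by the egg is destroyed and a short burst of 2-cell transcripts is switched off, while the embryo begins to make its own transcripts for growth and division. p300, encoded by Ep300, is a coactivator and lysine acyltransferase: it places acetyl groups on histones and can also place crotonyl groups, marks that are found at active promoters and enhancers.

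Libraries were made with the Smart-seq2 protocol, and 16603 of the 25208 listed genes passed the filter on low counts. Levels are given as CPM, read counts relative to the scaled library size. They are not corrected for transcript length, so a level is compared between libraries of 1 gene and not between genes. Total counts were 5371159 and 9511560 at the late 2-cell stage and 7173716 and 15792823 at the 4-cell stage of siRNA embryos, against 8101600 to 23482681 in the controls. Drawn down to equal depth, siRNA embryos had 17584 ± 24 genes with a read at the late 2-cell stage and 14844 ± 42.4 at the 4-cell stage (mean ± SD, n = 2 each). Controls had 17573 ± 180 and 14267 ± 117. Replicates of siRNA embryos correlated at 0.988 and 0.968 over log2 CPM, while siRNA libraries of different stages correlated at 0.697 to 0.728. Stage markers went with the labels: Zscan4d, a marker of the 2-cell burst, had 134 and 121 CPM at the late 2-cell stage and 0 and 1.77 CPM at the 4-cell stage, and Bmp15, an oocyte growth factor, had 1390 and 1320 CPM and then 9.2 and 8.65 CPM. In whole embryos, fewer cells of a type and less RNA per cell cannot be told apart. Markers of cells that could be carried over with embryos were low. The summed CPM of 20 cumulus and granulosa markers was 27.7 and 26.5 and then 34 and 20.7, with Fshr and Amh at 0 counts in all 4 siRNA libraries. Cyp19a1 and Has2, markers of the same cells, were not at 0. Cyp19a1 had 1.9 and 2.87 and then 0 and 0.122 CPM, and Has2 had 0.73 and 0 and then 0.976 and 0 CPM. The sums of 12 blood and of 12 fibroblast markers were 26.6 and 23.3, and 35.3 and 30.1, at the late 2-cell stage, and 6 to 12.1 and 3.29 to 9.9 at the 4-cell stage. Hbb-bs and Col3a1 were at 0 counts throughout. Other markers of these cells had a few counts in siRNA libraries: Alas2 and Ptprc of blood reached 0.608 and 0.438 CPM. Col1a1 and Dcn of fibroblasts reached 0.73 and 0.261 CPM. The sum of 15 sperm markers was 335 and 313 and then 32.8 and 54.6, most of it Odf2, a centrosome and sperm tail gene (315 and 286 CPM and then 17.3 and 36.7 CPM). Prm1 and Prm2, which pack sperm DNA, had at most 0.558 CPM, and 0.438 and 0.956 and then 2.51 and 2.07 CPM. The part of such RNA in the results was not tested.

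Ep300 was low at both stages of the treated embryos. Its level was 22.6 and 29.9 CPM at the late 2-cell stage and 11.4 and 19.14 CPM at the 4-cell stage in siRNA embryos, against 86.1 and 83.8 CPM at the late 2-cell stage and 48.3 and 88.4 CPM at the 4-cell stage in controls. Every siRNA library was below every control library of its stage. Against controls, the log2 difference was -1.69 ± 0.36 at the late 2-cell stage (adjusted p = 0.318) and -2.15 ± 0.37 at the 4-cell stage (adjusted p = 0.00128). Within siRNA embryos the change across the step was -0.77 ± 0.36 (adjusted p = 0.0791), which did not pass the test. After a correction for transcript length this change was 0.67, with the opposite sign. Crebbp, the gene of the related acetyltransferase CBP, named here outside the naming rule, had 286 and 294 CPM at the late 2-cell stage and 68.6 and 56.2 CPM at the 4-cell stage and fell by a log2 of 2.22 (adjusted p = 4e-07). In controls it had 290.1 and 278 CPM at the late 2-cell stage and 60.9 and 81.1 CPM at the 4-cell stage.

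Most of the transcriptome moved between the stages in embryos with little Ep300 RNA. Of the 16603 genes tested, 9717 changed (58.5%; edgeR's quasi-likelihood test with Benjamini-Hochberg adjustment over all genes, adjusted p under 0.05), of which 4483 rose (27%) and 5234 fell (31.5%). More than 4-fold rises were called for 2463 genes and more than 4-fold falls for 3778. The median log2 fold change of all genes was -0.25, and the list medians given here are read against it. It moved to -0.51 with DESeq2 size factors, to -0.54 with library totals and to 0.32 with the length correction, and the share of called genes that rose moved from 46.1% to 40.1%, 39.5% and 59.9%. In libraries taken one by one, 34.9% of genes had both 4-cell values above both late 2-cell values and 44.8% had them below, so a lack of overlap in a single gene is the common case here. The test was also run on simulated counts of 16132 genes. Of these, 66 changed 4-fold, 67 changed 2-fold and 67 changed 1.5-fold, and the rest did not change between the groups. The test recovered 75.8%, 19.4% and 2.99% of these changes. The changed genes were drawn only from those above a low floor of mean CPM, and only the 4-cell siRNA libraries were altered. Recovery of genes below that floor was not simulated. In the real data 58.5% of genes were called, which alters the adjustment of p, so these shares are not the recovery of the real comparison. A gene without a call is not thereby an unchanged gene.

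Stored maternal transcripts fell. Of 63 tested members of the maternal list, 54 fell (31.5% of all genes fell) and 3 rose, with a median log2 fold change of -4.66 against -0.25 for all genes. Zbed3, an egg-abundant zinc finger gene that is not on the list but came next after Rn45s in loss of CPM, had 16200 and 12620 CPM at the late 2-cell stage and 12.8 and 11.9 CPM at the 4-cell stage. Both 4-cell libraries were far below both late 2-cell libraries, a log2 change of -10.19 ± 0.57 (adjusted p = 1.4e-10). Spin1, encoding the meiotic spindle-associated protein spindlin, had 8552 and 7896 CPM at the late 2-cell stage and 235 and 191 CPM at the 4-cell stage. Its libraries split cleanly by stage, with a log2 change of -5.27 ± 0.23 (adjusted p = 1.9e-11). Tcl1, an AKT cofactor supplied by the egg, had 7783 and 8189 CPM at the late 2-cell stage and 27.1 and 26.6 CPM at the 4-cell stage, and Tcl1b2 of the same family had 626 and 752 CPM at the late 2-cell stage and 2.93 and 1.65 CPM at the 4-cell stage. Again no library of a stage reached the other stage, and the log2 changes were -8.22 and -8.32. Rfpl4, an oocyte ubiquitin ligase gene, fell by a log2 of 6.45 and Bmp15 by 7.25. Gdf9, the partner growth factor of Bmp15, had 230.5 and 291 CPM at the late 2-cell stage and 22.3 and 8.35 CPM at the 4-cell stage.

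The summed CPM of the maternal list was 42600 and 43000 at the late 2-cell stage and 7960 and 6490 at the 4-cell stage. The 3 members that rose were Khdc3, a subunit of the subcortical maternal complex, Dppa3, which guards maternal methylation, and Gtsf1, a piRNA pathway gene, named here because they are the whole of that count. Khdc3 kept its call only without 4-cell replicate 2 among the 4 leave-outs (log2 0.68 to 1.17 in the others). Dppa3 went from 2025 and 2096 CPM to 5995 and 4891 CPM. Zp3, the zona pellucida sperm receptor, had 38.1 and 45 CPM at the late 2-cell stage and 26.8 and 37.5 CPM at the 4-cell stage and did not pass the test (adjusted p = 0.479), and its lowest late 2-cell library stood less than 1 CPM above its highest 4-cell library. Controls gave 54 falls and 4 rises in this list with a median of -4.95.

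Most transcripts of the 2-cell burst fell in siRNA embryos. Of 52 tested members of the 2-cell list, 30 fell and 8 rose, with a median of -3.45 (controls: 30 falls, 11 rises, median -2.72). Among all genes of siRNA embryos 31.5% fell and 27% rose, with a median of -0.25. Zfp352, a retrotransposed zinc finger gene of this stage, had 407 and 504 CPM at the late 2-cell stage and 2.79 and 17.5 CPM at the 4-cell stage. Its 4-cell libraries were both low but differed from each other by several fold, and the log2 change was -5.41 ± 1.29 (adjusted p = 0.00161). Zscan4c, a telomere-associated gene of the burst, had 14.9 and 17.8 CPM at the late 2-cell stage and 0.279 and 0.0609 CPM at the 4-cell stage, and Tdpoz1 had 46 and 67.2 CPM at the late 2-cell stage and 0 and 9.51 CPM at the 4-cell stage. Tdpoz1 lost its call without late 2-cell replicate 2 (log2 -3.18) or 4-cell replicate 1 (log2 -2.57). These 3 genes were named outside the rule, as markers of the stage. Fgf1, a growth factor on the list, went from 37.8 and 43.7 to 4.46 and 5.12 CPM (log2 -3.08 ± 0.34).

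Not all listed 2-cell genes fell, and the abundant ones that rose set the list's sum. Obox6, an oocyte-type homeobox gene, had 434 and 551 CPM at the late 2-cell stage and 2854 and 1901 CPM at the 4-cell stage, and Trim43a, of a TRIM family active in early cleavage, had 274 and 339 CPM at the late 2-cell stage and 1679 and 2123 CPM at the 4-cell stage. Eif1a, a translation initiation factor induced with the genome, rose from 34.3 and 47.8 to 667 and 699 CPM, a log2 change of 4.05 ± 0.22 (adjusted p = 1.3e-10). With these, the list's summed CPM was 5100 and 6610 at the late 2-cell stage and 8990 and 9440 at the 4-cell stage, although its median log2 change was negative. Zscan4, Tdpoz, Obox and Trim43 genes have near-identical copies, and the counting of reads shared between copies is not given in the sources used here, so their single values are uncertain.

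**Figure D1:**
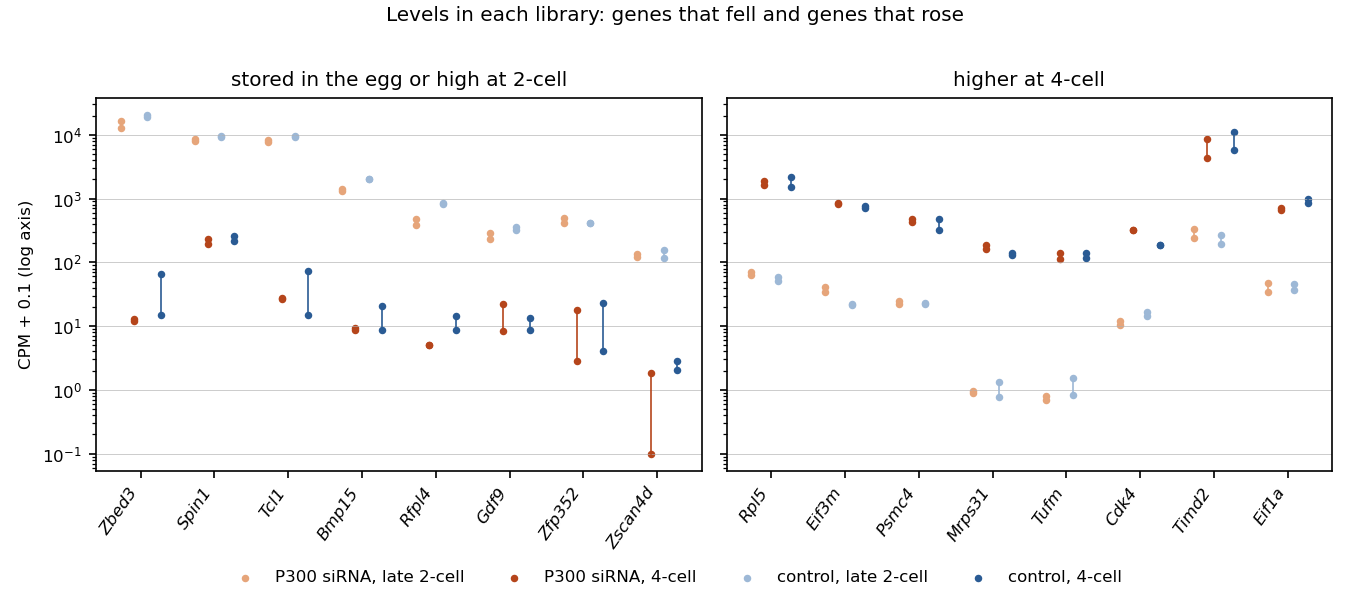
Level of 16 genes in each of the 8 libraries, as CPM + 0.1 on a log axis; each point is 1 library and a line joins the 2 libraries of a group. Left, maternal and 2-cell transcripts, which were lower in both 4-cell siRNA libraries (dark red) than in both late 2-cell siRNA libraries (light orange); right, genes that were higher at the 4-cell stage, with control libraries in light and dark blue.

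Transcripts of the protein synthesis machinery rose as a block. All 81 tested cytosolic ribosomal protein genes rose and none fell, with a median log2 fold change of 3.39 (27% of all genes rose, median -0.25). Rpl5, whose protein carries 5S RNA into the large subunit, had 63.5 and 69.3 CPM at the late 2-cell stage and 1886 and 1631 CPM at the 4-cell stage, and Rpl7a had 11.1 and 7.12 CPM at the late 2-cell stage and 532 and 482 CPM at the 4-cell stage. In both genes each 4-cell library was far above each late 2-cell library, with log2 changes of 4.73 ± 0.20 and 5.82 ± 0.27 (adjusted p = 1.3e-11 and 3.5e-11). Rpl19 went from 63.5 and 85 to 1357 and 1352 CPM and Rpl14 from 39.5 and 38.5 to 510.0 and 530.4 CPM. Ribosomal protein genes have many processed copies in the genome, which could take a share of their reads. Their transcripts are short, and after removal of the median change of genes of like length, the list's median was 2.46.

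Factors that load and move ribosomes rose with them. Of 48 initiation and elongation factor genes, 36 rose and 3 fell, with a median of 1.72 (all genes: 27% rose, 31.5% fell, median -0.25). Eif3m, a subunit of the initiation factor that holds the small subunit, had 34.3 and 41.5 CPM at the late 2-cell stage and 841 and 815 CPM at the 4-cell stage. The stages did not overlap and the log2 change was 4.45 ± 0.18 (adjusted p = 1e-11). Eef1g, of the elongation factor complex, rose from 15.3 and 16.6 to 598 and 504 CPM, and Eif3d from 24.9 and 21.5 to 294 and 342 CPM. Among 112 genes that build ribosomes, 75 rose and 10 fell, with a median of 0.95; the 10 falls were 5 without 4-cell siRNA replicate 1. Npm1, the abundant nucleolar chaperone, went from 499.8 and 558 to 3852 and 3674 CPM, and Tsr2, which delivers a small subunit protein, from 12 and 14.3 to 589.6 and 582 CPM.

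Mitochondrial and proteasome genes showed the same pattern, beside 27% of all genes that rose, 31.5% that fell and a median of -0.25. Of 76 respiratory chain genes 74 rose and none fell, with a median of 3.04, and of 78 mitochondrial ribosomal protein genes 75 rose and 1 fell, with a median of 2.74. Mrps31, a small subunit protein of the mitochondrial ribosome, had 0.875 and 0.782 CPM at the late 2-cell stage and 165 and 188 CPM at the 4-cell stage. From 15 counts in the late 2-cell libraries it reached 4264 in the 4-cell libraries, a log2 change of 7.73 ± 0.29 (adjusted p = 8.9e-12). Tufm, the mitochondrial elongation factor, had 0.584 and 0.695 CPM at the late 2-cell stage and 113 and 138 CPM at the 4-cell stage (log2 7.57 ± 0.32), and Ndufa12, of respiratory complex I, had 2.19 and 1.91 CPM at the late 2-cell stage and 199 and 142 CPM at the 4-cell stage. Both were close to absent in the earlier libraries and above 100 CPM in the later ones. Of 48 proteasome genes, 41 rose and 5 fell, with a median of 3.07. Psmc5 and Psmc4, ATPases of the regulatory particle, went from 29.9 and 38.1 to 533 and 563 CPM and from 22 and 24.6 to 486 and 435 CPM.

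RNA processing and replication genes rose more often than they fell, with smaller steps. Of 86 splicing factor genes 65 rose and 3 fell (1 without 4-cell siRNA replicate 1 or either late 2-cell siRNA library), with a median of 1.26, and Lsm5, of the ring that binds U6 RNA, had 1.31 and 1.04 CPM at the late 2-cell stage and 115 and 98.4 CPM at the 4-cell stage. Of 57 DNA replication genes 26 rose and 11 fell, with a median of 0.31. Rfc4, of the clamp loader, rose from 9.78 and 12.1 to 193 and 184 CPM and Tk1, thymidine kinase, from 17.5 and 23.9 to 213 and 174 CPM. Of 61 mitosis and cell cycle genes 14 rose and 19 fell, shares near the 27% and 31.5% of all genes. With the length correction 28 of them rose and 11 fell. That correction also moved the rises of all genes from 4483 to 5795 and their falls from 5234 to 3886. Cdk4, a kinase of the G1 phase, had 10.2 and 12.1 CPM at the late 2-cell stage and 322 and 320.1 CPM at the 4-cell stage, a log2 rise of 4.84 ± 0.22 (adjusted p = 2.5e-11). Ccnb1, the mitotic cyclin, rose from 1079 and 1241 to 3545 and 3640 CPM, and Fbxo5, which restrains the anaphase-promoting complex, fell from 314 and 388 to 71.5 and 59.9 CPM. The 81, 36, 74, 75, 41 and 65 rises in the ribosomal, translation factor, respiratory, mitochondrial ribosomal, proteasome and splicing lists were 81, 36 to 37, 72, 71 to 74, 40 and 59 to 64 when any 1 siRNA library was left out.

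Promoters of genes that rose and fell differed in their letters. RefSeq promoter windows (GRCm38.p6, 250 bases before and 50 after the start of a gene) matched 13036 of the 16603 genes by symbol, and 12 motifs were searched on both strands with matches allowed to overlap: ETS (CCGGAAG), YY1 (AAGATGGC), the cAMP response element (TGACGTCA), the E box (CACGTG), the GC box (GGGCGG), the CCAAT box (CCAAT), the TATA box (TATAAA), NR5A2 (TCAAGGTCA), OBOX (GGATTA), and NRF1, ZBTB33 and DUX, whose longer letters are not printed. The ETS-type motif CCGGAAG was held by 24.6% of genes that rose, 11% of genes that fell and 15.7% of all windows. For genes that rose or fell more than 4-fold the shares were 24.1% and 7.87%. In the same order of rises, falls and all windows, the YY1 letters were in 6.07%, 3.6% and 4.1%, the cAMP response element in 4.14%, 2.41% and 2.99%, the E box in 11.2%, 8.18% and 9.67%, the GC box in 60.7%, 57.3% and 58.3%, the CCAAT box in 39.1%, 40.5% and 39.3%, and the TATA box in 7.55%, 8.52% and 8.42%. The NRF1, ZBTB33, NR5A2 and DUX letters were in at most 1.79% of all windows, and the OBOX letters in 5.97%. For rises and falls the shares were 2.01% and 1.8% (NRF1), 1.09% and 1.07% (ZBTB33), and 5.82% and 6.3% (OBOX). The NR5A2 letters were in 0.448% and 0.073%, which is 16 and 3 genes, and the DUX letters in 1 gene of each. CpG content also differed: the median ratio of observed to expected CpG was 0.766 for rises and 0.700 for falls, 0.721 and 0.599 for rises and falls of more than 4-fold, and 0.716 for all windows. In the lowest of 5 bins by this ratio the median log2 change was -1.22 in siRNA embryos and -1.43 in controls, and in the highest bin 0.04 in both. These are descriptions of letters; binding was not measured here. The 250 bases before the start are shown for 3 genes that rose, each with 1 match to the ETS-type letters in capitals (CTTCCGG is the same motif on the other strand), and for 2 genes abundant in the egg that fell, which have none in this window. Eif3m lies at chr2:105017028-105017277 on the minus strand, with its match 55 bases before the start. Rpl19 lies at chr11:98026460-98026709 on the plus strand (39 bases), and Hat1, the histone acetyltransferase described below, at chr2:71389010-71389259 on the plus strand (27 bases). Zbed3 lies at chr13:95323355-95323604 on the plus strand and Bmp15 at chrX:6320725-6320974 on the minus strand. The observed to expected CpG ratios of the 5 windows of 300 bases, in the order printed, were 0.768, 1.09, 0.962, 0.259 and 0.155.
Eif3m: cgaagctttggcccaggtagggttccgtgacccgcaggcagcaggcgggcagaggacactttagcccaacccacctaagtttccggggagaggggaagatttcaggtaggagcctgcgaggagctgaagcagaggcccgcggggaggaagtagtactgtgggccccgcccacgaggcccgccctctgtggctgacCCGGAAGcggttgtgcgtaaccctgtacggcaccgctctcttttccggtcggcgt
Rpl19: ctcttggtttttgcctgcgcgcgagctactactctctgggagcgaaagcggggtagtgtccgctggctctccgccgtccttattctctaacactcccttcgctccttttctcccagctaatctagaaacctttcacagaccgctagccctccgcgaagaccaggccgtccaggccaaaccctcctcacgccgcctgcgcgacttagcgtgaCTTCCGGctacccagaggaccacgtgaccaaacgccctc
Hat1: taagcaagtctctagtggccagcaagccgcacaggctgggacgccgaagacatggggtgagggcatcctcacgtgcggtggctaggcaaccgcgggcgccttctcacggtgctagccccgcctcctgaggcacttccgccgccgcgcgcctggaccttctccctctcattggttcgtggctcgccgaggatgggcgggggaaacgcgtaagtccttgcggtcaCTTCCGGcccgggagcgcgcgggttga
Zbed3: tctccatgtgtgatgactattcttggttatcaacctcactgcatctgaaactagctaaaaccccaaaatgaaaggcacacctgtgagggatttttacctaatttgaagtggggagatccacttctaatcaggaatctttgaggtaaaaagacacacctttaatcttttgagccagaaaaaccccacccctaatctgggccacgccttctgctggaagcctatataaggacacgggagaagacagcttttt
Bmp15: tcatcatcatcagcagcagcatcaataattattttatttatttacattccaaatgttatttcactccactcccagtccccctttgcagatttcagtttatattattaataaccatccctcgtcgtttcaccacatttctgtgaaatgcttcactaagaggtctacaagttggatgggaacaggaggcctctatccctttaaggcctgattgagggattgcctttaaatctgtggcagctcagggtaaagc

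Genes that write, erase and read histone marks changed in both directions. Of 34 histone acyltransferase and deacetylase genes 10 rose and 10 fell, shares near the 27% and 31.5% of all genes, with a median of -0.50 that was 0.41 with the length correction. Hat1, which acetylates newly made histone H4, had 17.4 and 19.3 CPM at the late 2-cell stage and 559 and 506 CPM at the 4-cell stage. Its 4-cell libraries were far above the late 2-cell ones, a log2 rise of 4.86 ± 0.24 (adjusted p = 4.9e-11). Sirt6, a nuclear deacylase, rose from 12.6 and 12.7 to 180.3 and 132 CPM and Hdac3 from 2.92 and 2.35 to 21.1 and 23.2 CPM, while Clock, a circadian regulator with acetyltransferase activity, fell from 253 and 244 to 42.5 and 40.5 CPM. Among 39 reader and crotonyl-CoA genes 10 rose and 18 fell, or 19 and 10 with the length correction. All genes gave 5795 rises and 3886 falls with that correction, against 4483 and 5234 without it. Mllt3, whose YEATS domain binds acetylated and crotonylated lysine, had 645 and 586 CPM at the late 2-cell stage and 16.9 and 11.2 CPM at the 4-cell stage, a log2 change of -5.47 ± 0.39 (adjusted p = 1.9e-09). Brdt, the germ line bromodomain protein, fell from 733 and 713 to 44.6 and 55.9 CPM.

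Counts of histone methylation, DNA methylation and histone genes are set beside all genes, of which 27% rose and 31.5% fell. Histone methylation genes fell more often than they rose, 26 against 8 of 48, with a median of -0.84 (all genes -0.25). The histone methylation list has the longest transcripts of those described (median 5.73 kb). With the length correction 8 fell and 18 rose, so the sign of its change depends on that choice. Its median was then 0.17, still below the 0.32 of all genes. Kmt2d, an H3K4 methyltransferase of enhancers, had 459 and 420.3 CPM at the late 2-cell stage and 30.7 and 27 CPM at the 4-cell stage (log2 -3.93 ± 0.23), and Kdm1b, the oocyte H3K4 demethylase, had 138 and 132 CPM at the late 2-cell stage and 25 and 16.3 CPM at the 4-cell stage. The 8 rises were 5 without late 2-cell siRNA replicate 1. Of 18 DNA methylation genes 6 rose and 7 fell, and without that library 3 rose. Tet3, which oxidises methylcytosine in the zygote, fell from 314 and 300.1 to 13.1 and 11.6 CPM, and Uhrf1, which guides maintenance methylation, from 114 and 117 to 12 and 11.2 CPM. Of 50 histone genes 11 rose and 10 fell, or 6 fell without late 2-cell siRNA replicate 1 or 4-cell siRNA replicate 2; the replacement variants H2az1 and H3f3b went from 437 and 515 to 2024 and 1728 CPM and from 1992 and 2183 to 6053 and 5287 CPM, and the linker histone H1f0 from 113 and 117 to 38.6 and 32.9 CPM.

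Genes of the later cell lineages changed in both directions (27% of all genes rose and 31.5% fell). Of 43 inner cell mass and pluripotency genes 16 rose and 16 fell, with a median of 0.17. This median was -0.09 with DESeq2 size factors and -0.12 with library totals. The median of all genes moved too, from -0.25 to -0.51 and -0.54, and the list median stayed above it in each. Dppa5a, a pluripotency-associated RNA-binding protein gene, had 154 and 162 CPM at the late 2-cell stage and 2249 and 1276 CPM at the 4-cell stage, and Dppa2, which primes early embryonic genes, had 222 and 286 CPM at the late 2-cell stage and 1442 and 1413 CPM at the 4-cell stage. Both were higher in each 4-cell library, with log2 rises of 3.48 ± 0.30 and 2.49 ± 0.20. Nanog, a core pluripotency factor, named outside the rule as were Pou5f1 and Sox2, had 0.584 and 1.74 CPM at the late 2-cell stage and 142 and 31.9 CPM at the 4-cell stage. Its 4-cell libraries were both above the earlier ones but differed several fold from each other. Pou5f1 had 54.1 and 58.6 CPM at the late 2-cell stage and 22.6 and 9.81 CPM at the 4-cell stage (log2 -1.83 ± 0.45, adjusted p = 0.00205), and Sox2 had 7 and 7.47 CPM at the late 2-cell stage and 0.418 and 0 CPM at the 4-cell stage. Stat3, the effector of LIF signalling, fell from 78.7 and 84.3 to 2.65 and 2.8 CPM, and Lin28a, which blocks let-7 processing, from 143 and 136 to 13.5 and 16.4 CPM.

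Trophectoderm genes gave 13 rises and 12 falls of 38, with 7 falls without 4-cell siRNA replicate 2. The counts of this and the following lists stand beside 27% of all genes that rose and 31.5% that fell. Hand1, a regulator of trophoblast giant cells, had 1.9 and 1.48 CPM at the late 2-cell stage and 48.2 and 37.2 CPM at the 4-cell stage, and Cldn7, a tight junction protein, had 4.09 and 4.78 CPM at the late 2-cell stage and 89 and 70.5 CPM at the 4-cell stage. Both rose, with log2 changes of 4.68 ± 0.41 and 4.15 ± 0.28. Duoxa2, a maturation factor for dual oxidase, had 28.4 and 28.3 CPM at the late 2-cell stage and 0.279 and 0.122 CPM at the 4-cell stage, at 4 counts in the 4-cell libraries. Of 21 primitive endoderm genes 2 rose (1 without 4-cell siRNA replicate 1) and 7 fell; Fgfr4 went from 2.63 and 2.17 to 12.3 and 12 CPM and Pdgfra from 11.5 and 5.82 to 1.12 and 0.548 CPM. With the length correction, the 16603 genes tested gave 5795 rises and 3886 falls, against 4483 and 5234 without it. In the Hippo list, 6 rose and 8 fell of 25, or 10 and 6 with the length correction. Yap1, its transcriptional coactivator, fell from 345 and 352 to 42.7 and 31.8 CPM and Wwc2, an upstream activator, from 526 and 517 to 36 and 29.2 CPM, while the kinase gene Lats2 rose from 4.09 and 2 to 29.6 and 23.2 CPM. FGF and ERK genes gave 5 rises and 13 falls of 33, or 12 of each with the length correction. Spry4, a feedback inhibitor, went from 1570 and 1459 to 7.25 and 7.5 CPM and Mapk3, which encodes ERK1, from 173 and 151 to 3.49 and 1.95 CPM. Polarity and junction genes gave 13 rises and 22 falls of 43, or 17 and 12 with the length correction, with Pard3, a core polarity scaffold, at 755 and 807 CPM at the late 2-cell stage and 34.7 and 16.1 CPM at the 4-cell stage. The 13 rises were 8 without late 2-cell siRNA replicate 2 and the 22 falls 14 without 4-cell siRNA replicate 2.

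Metabolic and stress genes also changed in both directions, beside 27% of all genes that rose and 31.5% that fell. Nutrient transporter genes gave 14 rises and 11 falls of 35: Slc6a8, the creatine transporter, had 3.21 and 1.65 CPM at the late 2-cell stage and 177 and 122 CPM at the 4-cell stage, and Slc6a9, the glycine transporter used by the egg and early embryo, had 103 and 88.5 CPM at the late 2-cell stage and 7.53 and 5.97 CPM at the 4-cell stage. The first rose and the second fell without overlap of the stages. Sterol and fatty acid synthesis genes gave 13 rises and 9 falls of 34, among them Fdps, of the mevalonate pathway, from 24.4 and 35.3 to 598 and 292 CPM. The 13 rises were 8 without 4-cell siRNA replicate 1, and the 9 falls were 4 without late 2-cell siRNA replicate 2 and 5 without 4-cell siRNA replicate 2. Of 51 stress response genes 23 rose and 12 fell, with a median of 0.63; Hspa8, the constitutive chaperone, had 171 and 188 CPM at the late 2-cell stage and 2965 and 2781 CPM at the 4-cell stage, and Gpx4, which removes lipid peroxides, had 41.1 and 53.4 CPM at the late 2-cell stage and 363 and 351 CPM at the 4-cell stage. Of 41 p53 target and apoptosis genes 14 rose and 14 fell, shares near those of all genes, with Mdm4, an inhibitor of p53, going from 4009 and 3728 to 533 and 327 CPM. The glycolysis list had 27 tested members, of which 9 rose and 8 fell. The lactate dehydrogenase subunits parted, Ldha going from 73.4 and 85.3 to 283 and 361 CPM and Ldhb from 411 and 386 to 49 and 26.3 CPM. Of 59 germline, cancer-testis and X-linked family genes 25 rose and 10 fell, with a median of 0.76. The medians of 11 of the 32 lists changed sign between the main scaling, DESeq2 size factors, library totals and the length correction. Among them were the glycolysis (0.04, -0.20, -0.26 and 0.74), p53 (0.17, -0.09, -0.11 and 0.94) and DNA methylation lists (-0.03, -0.29, -0.31 and 0.91). The median of all genes moved as well, from -0.25 to -0.51, -0.54 and 0.32 in the same order. The glycolysis, p53 and DNA methylation lists stayed above it each time.

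**Figure D2:**
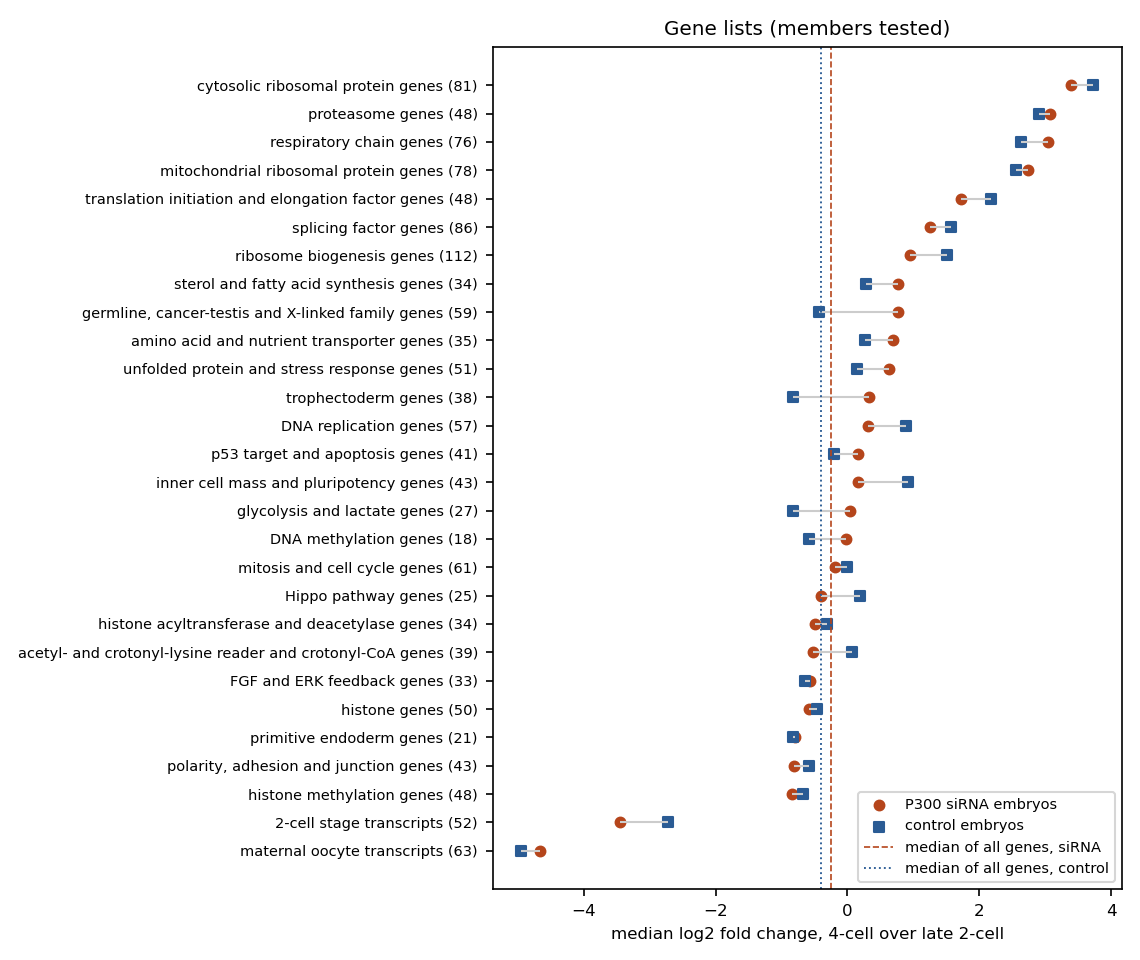
Median log2 fold change from late 2-cell to 4-cell of 28 gene lists in P300 siRNA embryos (circles) and control embryos (squares), with the number of members tested in brackets and vertical lines at the medians of all genes. Ribosomal, mitochondrial and proteasome lists lie highest and maternal and 2-cell transcripts lowest in both kinds of embryo.

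The largest rises were of genes almost without reads at the late 2-cell stage. Vnn1, a pantetheinase, had 0.146 and 0 CPM at the late 2-cell stage and 329 and 188 CPM at the 4-cell stage, which is 1 count before and 5449 after. Crygs, a lens crystallin gene, had 0 counts at the late 2-cell stage and 37 and 22.2 CPM at the 4-cell stage, at least 181-fold higher when the earlier libraries together are set at 3 counts. Ifitm2, an interferon-induced membrane protein gene, had 0.292 and 0.521 CPM at the late 2-cell stage and 182 and 82.5 CPM at the 4-cell stage, and Mrpl33, of the mitochondrial ribosome, had 0.146 and 0.434 CPM at the late 2-cell stage and 151 and 96.7 CPM at the 4-cell stage. The others were Nipsnap3b, Prl3b1, Mrps31, Rhox1, Tufm, Nubp1, Fabp3 and Zfp995, each under 1 CPM in both earlier libraries and above 20 CPM in both later ones. Rhox1, an X-linked homeobox gene, had 0.292 and 0.0869 CPM at the late 2-cell stage and 51.2 and 22.9 CPM at the 4-cell stage in siRNA embryos and 0.147 and 0.418 CPM at the late 2-cell stage and 3.61 and 0.596 CPM at the 4-cell stage in controls, but its difference of stage changes did not pass the test (adjusted p = 0.124). By gain in CPM, the leaders were Timd2, a ferritin receptor (238 and 338 CPM at the late 2-cell stage and 8549 and 4302 CPM at the 4-cell stage), Map1lc3b of autophagosomes, Cnbp, Rpl41 and H3f3b.

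The 12 largest falls ended without reads. Oog1, an oocyte gene of a multicopy family, had 105 and 124 CPM at the late 2-cell stage and 0 counts at the 4-cell stage, at least 900-fold lower with the 4-cell libraries together set at 3 counts. Nobox, the oocyte homeobox regulator, had 57.9 and 55.6 CPM and then 0, at least 446-fold lower. Mmp2, a secreted gelatinase (63.2 and 66.3 CPM), Nr2e1, an orphan nuclear receptor (69.3 and 52 CPM), and Tbx19, a T-box factor (64.1 and 61.3 CPM), also ended at 0, at least 509-fold, 477-fold and 493-fold lower. Others of the 12 were Ccnjl, Adamtsl1, Dnah9, Myo3a, Chit1 and Tmem171. By loss in CPM the leaders were Rn45s, the gene of the 45S ribosomal RNA precursor (27420 and 31380 CPM at the late 2-cell stage and 11510 and 9039 CPM at the 4-cell stage), then Zbed3, Spin1, Tcl1 and Ccdc6. Which form of ribosomal RNA gave the Rn45s reads was not tested.

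Transcript length moved with the change. Genes were put in 10 bins by transcript length. In the bin with the shortest transcripts (0.05 to 1.06 kb), 43.9% rose and 15.8% fell, and the median log2 change was 1.19. In the longest bin (6.33 to 104.57 kb) 17.8% rose and 49.6% fell, and the median was -1.03. Controls ran from 0.77 to -1.08 over the same bins. The share of counts on the shortest bin was 5.63% at the late 2-cell stage and 14.7% at the 4-cell stage of siRNA embryos, and on the longest 13.1% and 7.29%. Ribosomal protein genes have a median length of 0.74 kb, respiratory genes 0.83 kb and mitochondrial ribosomal genes 1.13 kb, and their medians after removal of the change of their length bin were 2.46, 2.11 and 2.02. Maternal transcripts, with a median length of 1.68 kb, had -4.82. Whether RNA quality or library preparation differed between the stages was not tested.

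**Figure D3:**
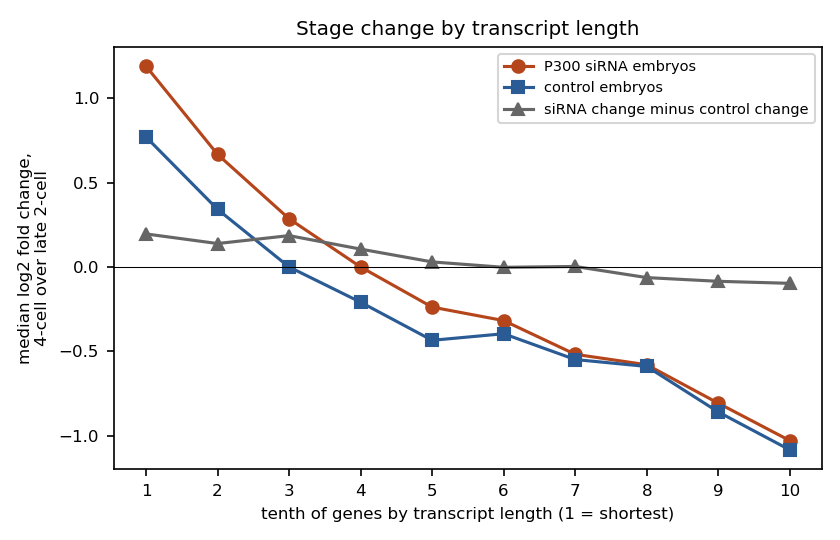
Median log2 fold change from late 2-cell to 4-cell in 10 bins of genes ordered by transcript length, for P300 siRNA embryos, control embryos and the difference between them. The medians fall from 1.19 to -1.03 in siRNA embryos and from 0.77 to -1.08 in controls, while the median difference runs from 0.20 to -0.10.

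Set beside control embryos, which share no library with them, siRNA embryos changed in the same direction for most called genes. Controls had 10163 called genes (61.2%), 4491 up and 5672 down. In both kinds of embryo 7816 genes were called with the same direction, 80.4% of the siRNA calls and 76.9% of the control calls, and 93 were called with opposite directions. Genes called as falls in controls had a median log2 change of -3.57 there and -2.67 in siRNA embryos, and genes called as falls in siRNA embryos had -3.36 there and -3.00 in controls, each set having been chosen in the group where it passed. The difference of the changes itself passed the test for 710 genes (4.28%), 394 with the siRNA change above the control change (2.37%) and 316 below (1.9%). A fit of the compared libraries alone, with its own estimate of the spread, called 43. With library totals in place of scaled sizes, 69.1% of the called differences were positive against 55.5%, with limma on FPKM 74.1%, and with the length correction 39.7%, so the balance of the directions depends on these choices. Leaving out 1 library gave 241 and 111 calls without late 2-cell siRNA replicates 1 and 2, 455 without 4-cell siRNA replicate 1, 126 and 221 without late 2-cell control replicates 1 and 2, and 1454 without 4-cell control replicate 1. Of the 58 genes named for a difference, 23 kept their call in all 8 leave-outs. On the simulated counts, which had no other change between the stages, the test of the difference recovered 39.4% of 4-fold and 5.97% of 2-fold differences.

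The 394 positive differences held 119 genes that fell in controls and were not called in siRNA embryos, 85 that fell in both, 85 that rose in siRNA embryos only, 61 that fell in controls and rose in siRNA embryos, and 44 that rose in both. The 316 negative differences held 111 genes that rose in both, 92 that rose in controls and were not called in siRNA embryos, 53 that fell in siRNA embryos only, 30 that rose in controls and fell in siRNA embryos, and 30 that fell in both. At the late 2-cell stage itself only Wdfy1, of endosomal membranes and named as the whole of that count, passed the test between siRNA and control embryos (0.00602%; 689 genes at an unadjusted p under 0.05), and at the 4-cell stage 2494 genes did (15%), 1290 of them higher in siRNA embryos (7.77%) and 1204 lower (7.25%).

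**Figure D4:**
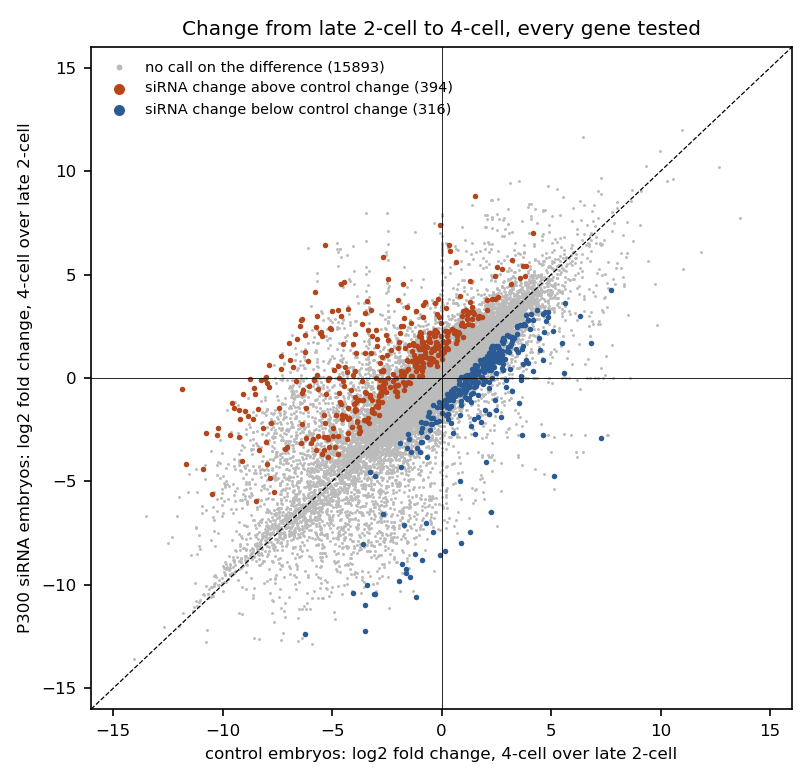
Log2 fold change from late 2-cell to 4-cell in control embryos (horizontal) and P300 siRNA embryos (vertical) for the 16603 genes tested; the dashed line marks equal change. The 394 genes with a siRNA change above that of controls are red and the 316 with one below are blue.

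Glycolysis genes held positive differences. Of 27 tested, 8 had a called positive difference and none a negative one (2.37% and 1.9% of all genes), and the median difference was 1.20 against 0.05 for all genes. The count was 5 without replicate 1 of either late 2-cell group and 6 to 9 in the other leave-outs, and the median lay between 1.12 and 1.53. It was 2 in a fit of the compared libraries alone, 3 with limma on FPKM and 3 with a minimum log2 fold change of 1. Ldha, which turns pyruvate into lactate, had 73.4 and 85.3 CPM at the late 2-cell stage and 283 and 361 CPM at the 4-cell stage in siRNA embryos. In controls it had 54.5 and 45.1 CPM at the late 2-cell stage and 26.8 and 22.1 CPM at the 4-cell stage. It rose in the first (log2 2.02 ± 0.30) and fell in the second (-1.03), and both siRNA libraries at the 4-cell stage stood far above both control libraries of that stage; the difference was 3.05 ± 0.42 (adjusted p = 0.00106). Tpi1, triosephosphate isomerase, had 22.5 and 10.7 CPM at the late 2-cell stage and 30.3 and 24.5 CPM at the 4-cell stage in siRNA embryos and 31.6 and 29.1 CPM at the late 2-cell stage and 4.85 and 3.76 CPM at the 4-cell stage in controls, a difference of 3.57 ± 0.49 (adjusted p = 0.00121). The remaining 6, listed to complete the count, were Gpi1, Gapdh, Pgk1, Eno1, Pkm and Pdk3. Gapdh, at no more than 2.79 CPM in any of the 8 libraries, and other glycolysis genes have processed copies that could share their reads.

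Stress response genes also held positive differences. Of 51 tested, 9 had one and 1 a negative one (2.37% and 1.9% of all genes). The 9 became 4 and 3 without late 2-cell siRNA replicates 1 and 2, 4 without either late 2-cell control and 5 with the length correction. They became 0 in a fit of the compared libraries alone, 1 with limma on FPKM and 2 with a minimum log2 fold change of 1. Hmox1, heme oxygenase, had 20.4 and 21.4 CPM at the late 2-cell stage and 22 and 24.9 CPM at the 4-cell stage in siRNA embryos and 21.3 and 12.4 CPM at the late 2-cell stage and 2.17 and 0.321 CPM at the 4-cell stage in controls. The 4 siRNA libraries differed little, and both 4-cell controls were the low group (difference 4.23 ± 0.61, adjusted p = 0.00186). Gstm1, a glutathione transferase, had 12 and 12.1 CPM at the late 2-cell stage and 7.25 and 14.6 CPM at the 4-cell stage in siRNA embryos and 18 and 18.5 CPM at the late 2-cell stage and 1.45 and 0.367 CPM at the 4-cell stage in controls (difference 4.38 ± 0.74, adjusted p = 0.00491). Of 41 p53 target and apoptosis genes, 3 had a positive and 1 a negative difference, with a median of 0.02 that lay between -0.19 and 0.22 over the leave-outs; the 3 became 6 without 4-cell control replicate 1 and 1 with limma on FPKM, and the 1 became 0 without late 2-cell siRNA replicate 2 or late 2-cell control replicate 1. Pmaip1, the apoptosis gene that encodes NOXA, rose in siRNA embryos, with 33 and 32.9 CPM at the late 2-cell stage and 163 and 135 CPM at the 4-cell stage, and had 32.3 and 26.3 CPM at the late 2-cell stage and 25.2 and 14.4 CPM at the 4-cell stage in controls (difference 2.75 ± 0.46, adjusted p = 0.00487). Bik, another gene of a BH3-only protein, had 13.4 and 8.08 CPM at the late 2-cell stage and 1.4 and 1.89 CPM at the 4-cell stage in siRNA embryos, and in controls 15.9 and 16.4 CPM and then 0 counts, at least 169-fold lower.

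The most positive differences included genes that were at or near 0 in 4-cell controls. Stat6, an effector of interleukin signalling, had 20.3 and 23.1 CPM at the late 2-cell stage and 13 and 16.7 CPM at the 4-cell stage in siRNA embryos, and in controls 35.8 and 32.9 CPM and then 0 counts, at least 363-fold lower. At the 4-cell stage siRNA embryos were at least 163-fold above controls when both control libraries together are set at 3 counts (adjusted p of the difference = 9.4e-06). Ier3, an immediate early gene, had 4.82 and 3.91 CPM at the late 2-cell stage and 4.6 and 7.74 CPM at the 4-cell stage in siRNA embryos and 13.2 and 10.3 CPM at the late 2-cell stage and 0.206 and 0.0458 CPM at the 4-cell stage in controls (difference 7.29 ± 0.73). Rab4a, a recycling endosome GTPase, fell in both but less in siRNA embryos: it had 50.3 and 51.4 CPM at the late 2-cell stage and 10.9 and 8.35 CPM at the 4-cell stage there and 73.7 and 64.4 CPM at the late 2-cell stage and 0.413 and 0.138 CPM at the 4-cell stage in controls (difference 5.75 ± 0.64, adjusted p = 0.00023). Uchl1, a ubiquitin hydrolase stored by the egg and the only maternal list member with a call on the difference, had 382 and 399 CPM at the late 2-cell stage and 45.9 and 59.1 CPM at the 4-cell stage and in controls 612 and 455 CPM at the late 2-cell stage and 6.4 and 7.93 CPM at the 4-cell stage. Slc3a2, the heavy chain of amino acid exchangers, rose from 207 and 221 to 358 and 515 CPM and fell in controls from 199 and 199.9 to 101 and 126 CPM.

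Negative differences included genes of the inner cell mass list. Of the 43 inner cell mass and pluripotency genes, 8 had a negative difference and none a positive one (1.9% and 2.37% of all genes), with a median difference of -0.56. The 8 became 4 and 3 without late 2-cell siRNA replicates 1 and 2, 4 without 4-cell siRNA replicate 2 and 3 and 4 without late 2-cell control replicates 1 and 2. They were 2 with limma on FPKM and with a minimum log2 fold change of 1, and 3 in a fit of the compared libraries alone. Nr5a2, a nuclear receptor active in early embryos, had 70.3 and 90.5 CPM at the late 2-cell stage and 78.7 and 64.3 CPM at the 4-cell stage in siRNA embryos and 51.9 and 55.4 CPM at the late 2-cell stage and 232 and 244 CPM at the 4-cell stage in controls. The siRNA libraries of the stages overlapped, while both 4-cell controls stood above every other library; the difference was -2.32 ± 0.30 (adjusted p = 0.00076). Myc, the growth regulator, fell in siRNA embryos, with 18.7 and 17.3 CPM at the late 2-cell stage and 5.3 and 4.51 CPM at the 4-cell stage, and rose in controls, with 14.8 and 14.5 CPM at the late 2-cell stage and 51.2 and 43 CPM at the 4-cell stage (difference -3.57 ± 0.61, adjusted p = 0.00544). The other 6, listed to complete the count, were Klf4, Klf5, Klf9, Tbx3, Spic and Etv5. The trophectoderm list had no common direction, with 5 positive and 3 negative differences of 38 and a median of -0.07. The 5 became 0 without either late 2-cell siRNA library or late 2-cell control replicate 1, 3 without 4-cell siRNA replicate 1, and 2 and 1 without late 2-cell and 4-cell control replicate 2; the 3 became 1 without late 2-cell siRNA replicate 2 or late 2-cell control replicate 1 and 5 without 4-cell siRNA replicate 1. The median was 0.71 without 4-cell control replicate 1, and a fit of the compared libraries alone called neither sign. Of 25 Hippo pathway genes 1 had a positive and 2 a negative difference, with no positive one without either late 2-cell siRNA library, 4-cell siRNA replicate 1 or either late 2-cell control. In a fit of the compared libraries alone no Hippo gene had a called difference of either sign. The same held with limma on FPKM and with a minimum log2 fold change of 1. Tead4, the DNA-binding partner of YAP in trophectoderm, had 26.4 and 23.6 CPM at the late 2-cell stage and 41 and 29.1 CPM at the 4-cell stage in siRNA embryos and 16.1 and 18.2 CPM at the late 2-cell stage and 127 and 104 CPM at the 4-cell stage in controls (difference -2.27 ± 0.39, adjusted p = 0.00576). Ccn1, a target gene of YAP, had 9.63 and 7.47 CPM at the late 2-cell stage and 19.25 and 25.4 CPM at the 4-cell stage and 3.9 and 3.13 CPM at the late 2-cell stage and 43.9 and 46.5 CPM at the 4-cell stage (difference -2.28 ± 0.43, adjusted p = 0.00844).

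Ribosome biogenesis and translation factor genes, which rose in both kinds of embryo, also held negative differences. Of 112 biogenesis genes 11 had one and none a positive one (1.9% and 2.37% of all genes), with a median difference of -0.65, and of 48 translation factor genes 5 had one and none a positive one. These counts rest on few libraries: the 11 became 5 and 0 without late 2-cell siRNA replicates 1 and 2, 2 without 4-cell siRNA replicate 1, 0 and 3 without late 2-cell control replicates 1 and 2, 4 without 4-cell control replicate 2, 19 without 4-cell siRNA replicate 2 and 21 without 4-cell control replicate 1, with medians between -0.85 and -0.47. The 5 became 0 to 4 over the leave-outs, and were 0 without 5 of the libraries. In a fit of the compared libraries alone both counts were 0, and with limma on FPKM they were 1 and 0. Polr1b, of RNA polymerase I, had 51.8 and 62 CPM at the late 2-cell stage and 33.6 and 48.8 CPM at the 4-cell stage in siRNA embryos and 49.1 and 51 CPM at the late 2-cell stage and 100.3 and 104 CPM at the 4-cell stage in controls, a difference of -1.5 ± 0.30 (adjusted p = 0.0113). It lost its call without late 2-cell siRNA replicate 2 (-1.36) or late 2-cell control replicate 1 (-1.47). Other genes with large negative differences were Acadl, a fatty acid oxidation enzyme on the crotonyl-CoA list, with 7.59 and 6.26 CPM at the late 2-cell stage and 14.5 and 11 CPM at the 4-cell stage in siRNA embryos and 7.5 and 5.53 CPM at the late 2-cell stage and 209.6 and 112 CPM at the 4-cell stage in controls (difference -3.73 ± 0.48, adjusted p = 0.00075), Plcd1, a phospholipase C, with 2.33 and 1.39 CPM at the late 2-cell stage and 3.63 and 1.04 CPM at the 4-cell stage and 0.735 and 0.522 CPM at the late 2-cell stage and 33 and 29.9 CPM at the 4-cell stage, and Gprc5a, an orphan receptor, with 6.71 and 7.47 CPM at the late 2-cell stage and 2.65 and 0.853 CPM at the 4-cell stage and 9.19 and 4.07 CPM at the late 2-cell stage and 18.9 and 27.2 CPM at the 4-cell stage. Wdfy1 had 55.5 and 31.4 CPM at the late 2-cell stage and 50.1 and 44.1 CPM at the 4-cell stage in siRNA embryos and 6.61 and 10.6 CPM at the late 2-cell stage and 126 and 85.1 CPM at the 4-cell stage in controls, a difference of -3.51 ± 0.42 (adjusted p = 0.00036).

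**Figure D5:**
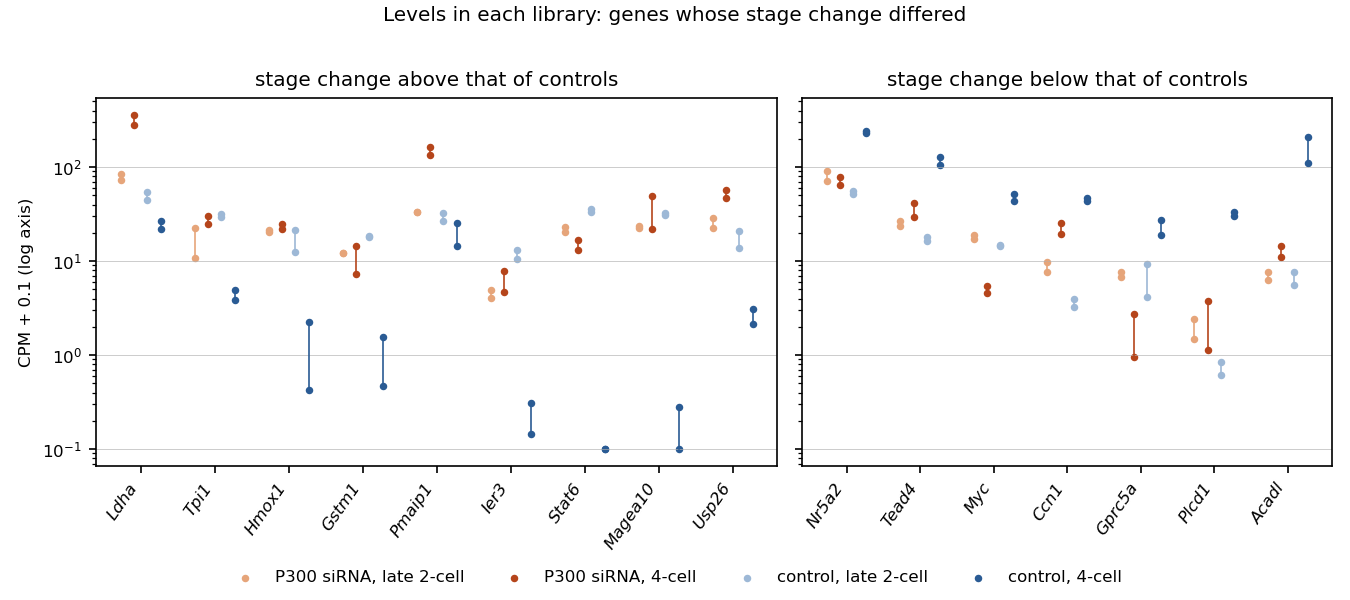
Level of 16 genes in each library, as CPM + 0.1 on a log axis, for genes whose stage change lay above that of controls (left) or below it (right); a line joins the 2 libraries of a group. On the left the 4-cell controls (dark blue) lie below the 4-cell siRNA libraries (dark red), and on the right above them.

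X-linked genes held a larger share of positive differences than autosomal genes did. The median log2 change of 682 X-linked genes was 0.05 in siRNA embryos and -0.65 in controls, against -0.27 and -0.39 for 15814 autosomal genes. A positive difference was called for 48 X-linked genes (7.04%) and a negative one for 6 (0.88%), against 2.17% and 1.95% of autosomal genes. Magea10, an X-linked cancer-testis gene, had 22.3 and 23.3 CPM at the late 2-cell stage and 21.6 and 48.9 CPM at the 4-cell stage in siRNA embryos and 32.3 and 30.6 CPM at the late 2-cell stage and 0 and 0.183 CPM at the 4-cell stage in controls (difference 8.54 ± 1.02, adjusted p = 0.00036). Usp26, an X-linked ubiquitin protease gene on the 2-cell list, had 22.6 and 28.8 CPM at the late 2-cell stage and 57 and 46.6 CPM at the 4-cell stage and 13.8 and 20.6 CPM at the late 2-cell stage and 2.06 and 3.02 CPM at the 4-cell stage (difference 3.73 ± 0.49), and Klhl13, a ubiquitin ligase adaptor, had 48.9 and 47.3 CPM at the late 2-cell stage and 44.6 and 20.5 CPM at the 4-cell stage and 47.5 and 47.1 CPM at the late 2-cell stage and 0.929 and 0.367 CPM at the 4-cell stage (difference 5.77 ± 1.06). In each of these genes the 4-cell controls were the low group. Of the 59 germline, cancer-testis and X-linked family genes, 11 had a positive difference and 2 a negative one; the 11 became 3 and 2 without late 2-cell siRNA replicates 1 and 2, 5 without 4-cell siRNA replicate 1, 2 and 5 without late 2-cell control replicates 1 and 2, and 20 and 7 without 4-cell control replicates 1 and 2. They were 2 in a fit of the compared libraries alone and with limma on FPKM. Magea and other families on this list have near-identical copies, so single values are uncertain. Psmd10, a proteasome assembly chaperone on the X, rose from 12.4 and 12.8 to 70.4 and 52 CPM and had 20.1 and 19.21 and then 25.4 and 18.2 CPM in controls. X-linked genes held 5.15% and 4.25% of CPM in the 4-cell siRNA libraries, 3.85% and 2.84% in the 4-cell controls and 2.81% to 2.91% in the 4 late 2-cell libraries.

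Xist, the RNA that coats the inactive X in female embryos, differed between libraries in a way the groups do not give. It had 5.84 and 4.08 CPM at the late 2-cell stage and 87.3 and 73.4 CPM at the 4-cell stage in siRNA embryos and 1.32 and 1.04 CPM at the late 2-cell stage and 72.8 and 0.367 CPM at the 4-cell stage in controls, so the 2 control libraries of the 4-cell stage stood at opposite ends. Eif2s3y, on the Y, had 49.6 and 52.2 CPM in the 4-cell siRNA libraries and 81.7 and 130 CPM in the 4-cell controls, and Ddx3y had 30.7 and 49.7 CPM and 48.0 and 35.4 CPM. The part of embryo sex in the X-linked result was not tested. Without 4-cell control replicate 1, the one with high Xist, the median X-linked difference was 0.84 and 106 X-linked genes had a positive call, and without 4-cell control replicate 2 they were 0.46 and 27. Over all 8 leave-outs the median lay between 0.36 and 0.84 and the calls between 8 and 106: 15 and 10 without late 2-cell siRNA replicates 1 and 2, 28 and 43 without 4-cell siRNA replicates 1 and 2, and 8 and 18 without late 2-cell control replicates 1 and 2.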

How the data were processed

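Libraries were prepared by Smart-seq2, as the labels' protocols state. The submitters' processing notes name HISAT2 2.2.1, build mm9, Cufflinks 2.2, bcl2fastq 2.20.0.422 and cutadapt 4.1, without their order. The authors deposited raw read counts per gene, and FPKM values for the same genes and libraries. The counter, its strand setting and its treatment of reads shared between copies are not given in the sources used here. Counts were tested with edgeR 4.0.16 in R 4.3.3 (filterByExpr, TMM scaling, 1 coefficient per group over 20 libraries in 10 groups, quasi-likelihood F test, two-sided, Benjamini-Hochberg adjustment over 16603 genes), and a call is an adjusted p under 0.05. Errors after ± are approximate standard errors unless SD is named: the absolute log2 fold change divided by the square root of its F statistic. The difference is the siRNA stage change minus the control stage change. Transcript lengths come from the ratio of counts to FPKM. Alternatives used DESeq2 1.42.0 and limma 3.58.1 (log2(FPKM + 1)), other scalings and filters, a replicate block and each library left out. A length correction, the leave-outs of X-linked and list differences, and those of genes outside the naming rule were added after seeing the data. The test was checked on simulated counts. Named genes were Ep300, the 12 largest rises and falls, the 5 largest in CPM, the 8 largest differences each way, and up to 4 stage and 2 difference calls per list by adjusted p, with at least 20 CPM in 1 group for the first and the differences. One gene that the rule names is not reported here. Others, including stage and cell markers, were chosen after their values were seen. Members and lists were chosen with earlier results of these data known.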

Additional observations from a re-analysis of the deposited data

Results flagged for a closer look

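The change from late 2-cell to 4-cell differed between siRNA and control embryos for 710 genes by edgeR's quasi-likelihood test of the difference itself. The log2 differences of the 58 genes named for it are given here as siRNA change minus control change.

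Among genes with the most positive differences the values were Stat6 (11.31), Magea10 (8.54), Bik (8.09), Samd10 (7.53), Pramel3 (7.50), Bhlhe40 (7.50), Ier3 (7.29), Klhl13 (5.77), Rab4a (5.75), Ct55 (5.74), Gstm1 (4.38) and Hmox1 (4.23). A fitted value for a gene at 0 counts in 4-cell controls, as for Stat6, Bik and Bhlhe40, is not a bound. For Bhlhe40 the control fall was at least 326-fold, with the 4-cell controls together set at 3 counts. The remaining positive values were Usp26 (3.73), Tpi1 (3.57), Uchl1 (3.31), Ldha (3.05), Pmaip1 (2.75), Psmd10 (2.13), Elovl1 (2.06), Mrps25 (1.92), Insig1 (1.85), Slc3a2 (1.84), Sirt4 (1.75), Mrpl48 (1.39) and Cldn6 (1.30).

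Among genes with the most negative differences the values were Chit1 (-8.74), Prkch (-6.37), Dnah9 (-6.15), Dusp6 (-5.38), Plcd1 (-5.36), Arhgap22 (-4.41), Gprc5a (-3.92), Upp1 (-3.91), Acadl (-3.73) and Myc (-3.57). Intermediate values were Nr5a2 (-2.32), Ccn1 (-2.28), Tead4 (-2.27), Spry2 (-2.22), Prmt6 (-2.20), Fgf1 (-2.17), Rpl34 (-1.99), Tfap2c (-1.55) and Fbxo5 (-1.53). The smallest were Polr1b (-1.496), Kdm5b (-1.37), Mcm10 (-1.37), Tbl3 (-1.35), Mcm3 (-1.33), Slc5a6 (-1.28), Racgap1 (-1.28), F11r (-1.19), Brd1 (-1.18), Eif5b (-1.17), Crnkl1 (-1.07), Eif3a (-1.02), Cdc5l (-1.003) and Hdac1 (-0.86).

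Of these 58 genes, 35 lost their call in 1 or more of the 8 leave-outs of a single library. The number lost was 34 without late 2-cell siRNA replicate 2, 31 without late 2-cell control replicate 1, and 5 without 4-cell control replicate 1. A fit of the compared libraries alone lost 41 of the calls, limma on log2(FPKM + 1) lost 39 and a minimum log2 fold change of 1 lost 39. Dusp6 was -2.02 without 4-cell control replicate 1, Arhgap22 was -2.91 and -7.90 without 4-cell siRNA replicates 2 and 1, and Samd10 was -1.52 without 4-cell siRNA replicate 2.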

How the results depend on the processing

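The count of genes that changed between the stages in siRNA embryos was 9717 and lay between 6914, with a minimum log2 fold change of 1, and 9782 over the other settings, and between 7944 and 8515 with 1 siRNA library left out. The count for controls lay between 8349 and 9304 with 1 control library left out. The 710 differences were less stable. They were 1358 (715 higher, 643 lower) with no low-count filter, 54 (39 and 15) with a minimum log2 fold change of 1, 43 (26 and 17) in a fit of the compared libraries alone, 1412 (736 and 676) with DESeq2's Wald test, and 220 (163 and 57) with limma on log2(FPKM + 1). With 1 library left out the calls ranged from 111 to 1454, those higher from 64 to 867 and those lower from 47 to 587. The fits differ in genes tested, libraries or error model, and the cause of each move was not tested. Replicate numbers did not pair the samples (correlation of deviations 0.04 in siRNA and 0.06 in control embryos), and with a replicate block 9425 stage changes and 708 differences were called. The length offset, chosen after seeing the data, reversed Ep300 (0.67) and the sign of 304 of the 9717 stage changes. Samd10's difference reversed without 4-cell siRNA replicate 2 (-1.52) and reached 9.63 without 4-cell control replicate 2. Of 155 genes named for the stage change, 146 kept their side of the threshold in every leave-out. The simulated recovery was lower for small changes; the part of depth in it was not tested.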
